A study of Mus musculus with 12 samples.

Results

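The mitochondrial respiratory chain passes electrons from NADH and succinate to oxygen through complexes I to IV, and ATP synthase, counted here as complex V, uses the resulting proton gradient to make ATP. Most of the subunits are encoded by nuclear genes, translated in the cytosol and imported. A small set is encoded by the circular mitochondrial genome, whose 2 strands are each transcribed as long precursors that are then cut into separate mRNAs. Complex II is built from nuclear-encoded subunits alone, and the other complexes need products of both genomes. Hepatocytes are rich in mitochondria and use the chain to oxidise fatty acids and amino acids.

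The genes described here are the protein-coding genes whose symbols name a subunit of complexes I to V. Nuclear genes were taken where the symbol began with Ndufa, Ndufb, Ndufc, Ndufs or Ndufv and a number, with Uqcr, with Cox and a number of a complex IV subunit, or with Atp5, or where it was Sdha, Sdhb, Sdhc or Sdhd. Mitochondrial genes were taken where the symbol began with mt-Nd, mt-Co, mt-Cytb or mt-Atp. Of 36047 genes with a listed transcript, 98 matched, and 93 of these reached a mean of 10 estimated counts over the mice. The 5 below it were Cox4i2, Cox6b2, Cox7b2, Cox8c and the second of 2 genes named Atp5o. The 93 comprised 80 nuclear and 13 mitochondrial genes, and all 93 passed the filter on low counts used for testing. By complex, the nuclear and mitochondrial members numbered 37 and 7 for complex I, 4 and 0 for complex II, 8 and 1 for complex III, 14 and 3 for complex IV and 17 and 2 for complex V. Some names are approximate. Ndufa4 was grouped with complex I by its name although its product is a subunit of complex IV, Cyc1 of complex III was not matched, and Atp5s and Ndufa4l2 are named after subunits without being constant parts of the enzymes.

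Liver RNA was sequenced from 12 male C57Bl/6J mice aged 5 to 6 months, 3 in each of 4 diet groups, after 7 days on the diets and 4 h without food. The regular-fat (RF) diets held 18% and the high-fat (HF) diets 60% of energy as fat, and at each fat level a control diet (RF.Ctrl, HF.Ctrl) was compared with one restricted in sulfur amino acids (RF.SAAR, HF.SAAR). All diets lacked cysteine, the SAAR diets held less methionine with glutamic acid in its place, and the mice were housed singly. The study also gave mice deuterium-labelled water for its protein measurements. The question was whether restriction changes liver gene expression and whether dietary fat alters that change. Each library is 1 mouse.

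Depth was 16203094 to 21230092 estimated counts per mouse, and replicate libraries differed by more than sampling noise. Hepatocyte markers summed to 87630 to 108574 CPM (counts per 1000000 counts of the library), with 9 of 10 listed markers found and all 9 above 0. Pancreatic acinar markers, 20 of 20 found, summed to 1282 CPM in RF.Ctrl mouse 1, 1514 and 5190 in HF.Ctrl mice 1 and 2, and 3535 and 18410 in HF.SAAR mice 2 and 3, against 44.1 to 87.3 in the other 7 mice. Skeletal and heart muscle markers, 14 of 14 found, summed to 309 to 1381 CPM and were highest in RF.SAAR mouse 3. Testis markers were near background, with Prm1, Prm2, Tnp1, Ldhc and Odf1 at 0 in every mouse. In bulk tissue, fewer cells of a type and less RNA per cell cannot be told apart.

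Several of the mitochondrial genes share bases with a neighbour or end without a complete stop codon. The sequences are shown 5′ to 3′ on the plus strand of the mitochondrial chromosome (GRCm38), with the bases that both genes of a pair use in capitals.
mt-Nd4l and mt-Nd4, chrM:10155-10185: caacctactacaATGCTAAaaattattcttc
mt-Atp8 and mt-Atp6, chrM:7915-7981: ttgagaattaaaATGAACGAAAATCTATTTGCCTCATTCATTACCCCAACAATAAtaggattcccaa
mt-Atp6 and mt-Co3, chrM:8595-8619: tgataatacataAtgacccaccaaa
mt-Nd5 and mt-Nd6, chrM:13540-13577: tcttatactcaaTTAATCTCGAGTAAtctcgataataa
The start codon of mt-Nd4 lies inside the end of mt-Nd4l over 7 bases (10167 to 10173), and that of mt-Atp6 inside mt-Atp8 over 43 bases (7927 to 7969). Both pairs are known to stay together on one mRNA. mt-Atp6 and mt-Co3 share 1 base, at 8607. mt-Nd6 is the single protein gene of the other strand, and its last 14 bases (13552 to 13565) face the end of mt-Nd5. Whether the counting used strand is not given in the sources used here, so RNA of the opposite strand over a gene may be counted with it. The overlaps of 7, 1 and 14 bases are shorter than the 31-base words compared further below, so they hold no shared word. As annotated, mt-Nd6 shared no word with mt-Nd5, and mt-Atp8 shared 13 of its 174 words with mt-Atp6. The word count covers annotated transcripts only and does not tell the strands over mt-Nd6 apart.

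The annotated ends of 3 genes carry a lone T, in capitals, which the poly(A) tail is known to complete to a stop codon.
mt-Co3, chrM:9361-9390: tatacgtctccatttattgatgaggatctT
mt-Nd4, chrM:11515-11544: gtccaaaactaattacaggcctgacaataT
mt-Cytb, chrM:15259-15288: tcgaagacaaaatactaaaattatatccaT
mt-Nd4 and mt-Cytb are the members called in RF.SAAR vs. RF.Ctrl, described further on, and mt-Co3 was not called there. A link between these ends and the diet was not tested.

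The 13 mitochondrial genes took 5.61 to 7.07% of all counts in each mouse and the 80 nuclear genes 0.932 to 1.33%. Levels between genes were compared as TPM (counts divided by transcript length and scaled to 1000000 per library), as mean ± SD over the 12 mice. By the reads assigned to each gene, mt-Co1, the catalytic core of cytochrome c oxidase, was the most abundant member at 17866 ± 1506 TPM. It was followed by mt-Co3 at 15643 ± 2356 and mt-Atp6, a membrane subunit of ATP synthase, at 15242 ± 998 TPM, and these neighbours lay within each other's spread. Reads given to nuclear copies, described below, are not in these values. The copy Gm28661 held a mean of 71963 counts against 58654 for mt-Co2. The copy Gm28437 held 25986 against 122091 for mt-Co3, so the order holds only for assigned reads. The complex I genes were lower, from 9003 ± 784 TPM for mt-Nd2 to 2819 ± 570 TPM for mt-Nd5, the least abundant of the 13. mt-Nd6, on the other strand, stood at 3716 ± 369 TPM. mt-Nd4l and mt-Nd4, which share an mRNA, stood at 4884 ± 1111 and 5218 ± 589 TPM, a difference smaller than their SDs. mt-Atp8 and mt-Atp6, which also share one, stood apart, at 7828 ± 1062 TPM for mt-Atp8 against the 15242 of mt-Atp6. Their annotated lengths were 204 and 681 bases, and those of mt-Nd4l and mt-Nd4 were 297 and 1378. TPM divides by length, and the part of short length in these values was not tested, so they are not shown to be differences in mRNA level.

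By mean TPM every mitochondrial gene was more abundant than every nuclear one. The RNA was poly(A)-selected before sequencing, so the levels are those of selected RNA, and the part of the selection in them was not tested. The most abundant nuclear members of each group were Ndufa4 (950 ± 125 TPM), Cox6a1 of complex IV (833 ± 143 TPM), Atp5b, the catalytic β subunit of ATP synthase (827 ± 116 TPM), Uqcrb of complex III (701 ± 107 TPM) and Sdha, the flavoprotein subunit of complex II (252 ± 46.9 TPM). At the low end of each group stood Sdhc (111 ± 10.96 TPM), Uqcrc1 (73.1 ± 10.7 TPM), Cox6a2 (10.96 ± 12.9 TPM), Atp5s (8.68 ± 2.02 TPM) and Ndufa4l2 (1.74 ± 0.714 TPM).

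Of isoform pairs with tissue-specific members, the liver held mainly the widely expressed form. Cox6a1 stood at 833 ± 143 TPM against 10.96 ± 12.9 TPM for the muscle form Cox6a2, Cox7a2 at 321 ± 63.0 against 12.7 ± 11.5 TPM for Cox7a1, and Cox8a at 463 ± 54.0 against 15.3 ± 20.9 TPM for Cox8b. Cox4i1 (743 TPM), Cox6b1 (364 TPM) and Cox7b (217 TPM) were measured while Cox4i2, Cox6b2, Cox7b2 and Cox8c fell below the count minimum. The related Cox7a2l, a factor in joining complexes III and IV, stood at 111 ± 17.9 TPM. The same ATP synthase c subunit is made from 3 genes, of which Atp5g3 (687 TPM) and Atp5g1 (342 TPM) were abundant and Atp5g2 (14.8 TPM) was not.

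Restriction with regular fat was accompanied by lower mitochondrial transcripts. In RF.SAAR vs. RF.Ctrl all 13 mitochondrial genes had lower fitted levels, and 2 of them, mt-Nd4 and mt-Cytb, fell in the test across all genes. The nuclear members shifted less, 69 of 80 having a lower fitted level. Fold changes are differences on the log2 scale from one edgeR quasi-likelihood fit over all 12 mice, called at an adjusted p (Benjamini-Hochberg over 14670 genes) under 0.05. Levels per mouse are normalised CPM, which are CPM after TMM scaling of the library sizes.

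Markers of other cell types also differed between the groups. Erythroid markers, 6 of 6 found, summed to 561 to 657 CPM in RF.Ctrl and 352 to 407 in RF.SAAR, without overlap, and to 391 to 442 in HF.Ctrl and 261 to 542 in HF.SAAR. Among them Alas2, the erythroid enzyme of haem synthesis, fell at both fat levels (adjusted p = 0.00303 and 9.56e-05), and the globin genes were not called. Macrophage markers, 6 of 6 found, summed to 281 to 359 and 302 to 359 CPM with regular fat and to 232 to 300 and 314 to 406 CPM with high fat, control group first. Stellate, endothelial and cholangiocyte markers, 12 of 12 found, summed to 371 to 425 and 418 to 466 CPM with regular fat. With high fat they summed to 359 to 427 and 390 to 472 CPM, again control group first. Among them Lrat, lower in RF.SAAR, was called with regular fat (adjusted p = 0.0408) and not with high fat (adjusted p = 0.548), and the others were not called in either. The part of these markers in the member differences was not tested.

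mt-Nd4, a proton-pumping subunit of complex I, read 5420, 5055 and 5602 normalised CPM in the RF.Ctrl mice and 3889, 4036 and 3741 in the RF.SAAR mice. It read 6039, 5973 and 6233 in HF.Ctrl and 4586, 4521 and 4097 in HF.SAAR. At both fat levels every restricted mouse lay below every control mouse, and all 6 restricted mice lay below all 6 controls. The log2 difference was −0.46 (SE 0.077, adjusted p = 0.00881) with regular fat and −0.47 (SE 0.077, adjusted p = 0.00648) with high fat. The second call was lost without HF.SAAR mouse 3 (−0.42, adjusted p = 0.0605).

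mt-Cytb, cytochrome b of complex III, read 9033, 8165 and 8744 normalised CPM in the RF.Ctrl mice and 6218, 7288 and 6042 in RF.SAAR. In HF.Ctrl it read 9634, 9814 and 8991 and in HF.SAAR 7598, 7831 and 6710. No restricted mouse reached the lowest control mouse of either fat level. The log2 difference of −0.41 with regular fat (SE 0.092, adjusted p = 0.0440) was called, and that of −0.36 with high fat (adjusted p = 0.0668) was not. The call with regular fat was lost in 9 of 12 fits that left out 1 mouse, at adjusted p of 0.0618 to 0.183 and log2 differences of −0.45 to −0.35, the 3 that kept it being those without RF.SAAR mouse 2, HF.Ctrl mouse 3 or HF.SAAR mouse 2.

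mt-Nd6, the complex I gene of the other strand, read 1068, 937 and 1003 normalised CPM in the RF.Ctrl mice and 726, 895 and 694 in RF.SAAR. In HF.Ctrl it read 1167, 1354 and 1137 and in HF.SAAR 845, 931 and 852. The groups did not overlap at either fat level, and the call came with high fat (−0.48, SE 0.1098, adjusted p = 0.0404). With regular fat the difference was −0.38 (adjusted p = 0.116). Since the library strand is not given, the mt-Nd6 values may include RNA of the opposite strand. The high-fat call was lost in 10 of 12 fits that left out 1 mouse (adjusted p 0.0515 to 0.167), the 2 that kept it being those without RF.SAAR mouse 2 or 3.

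The share of genes called sets these counts in context. In RF.SAAR vs. RF.Ctrl 0.886% of all 14670 genes were called lower and 0.6% higher, against 2 of 13 mitochondrial members lower and 0 of 80 nuclear members in either direction. The nuclear count of 0 is edgeR's, with 1 nuclear member at an unadjusted p under 0.05, and DESeq2 called 1, Sdha. In HF.SAAR vs. HF.Ctrl 0.961% of genes were called lower and 1.01% higher, against 2 mitochondrial members lower, mt-Nd4 and mt-Nd6, and again 0 of 80 nuclear members in edgeR. There 5 nuclear members had an unadjusted p under 0.05, and DESeq2 called 0. An unadjusted p under 0.05 was reached by 12 of 13 mitochondrial genes with regular fat and 9 of 13 with high fat. DESeq2 called 6 mitochondrial members lower with regular and 7 with high fat, and over all genes it called 2.7% lower and 2.15% higher with regular fat and 2.21% lower and 2.5% higher with high fat.

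**Figure D1:**
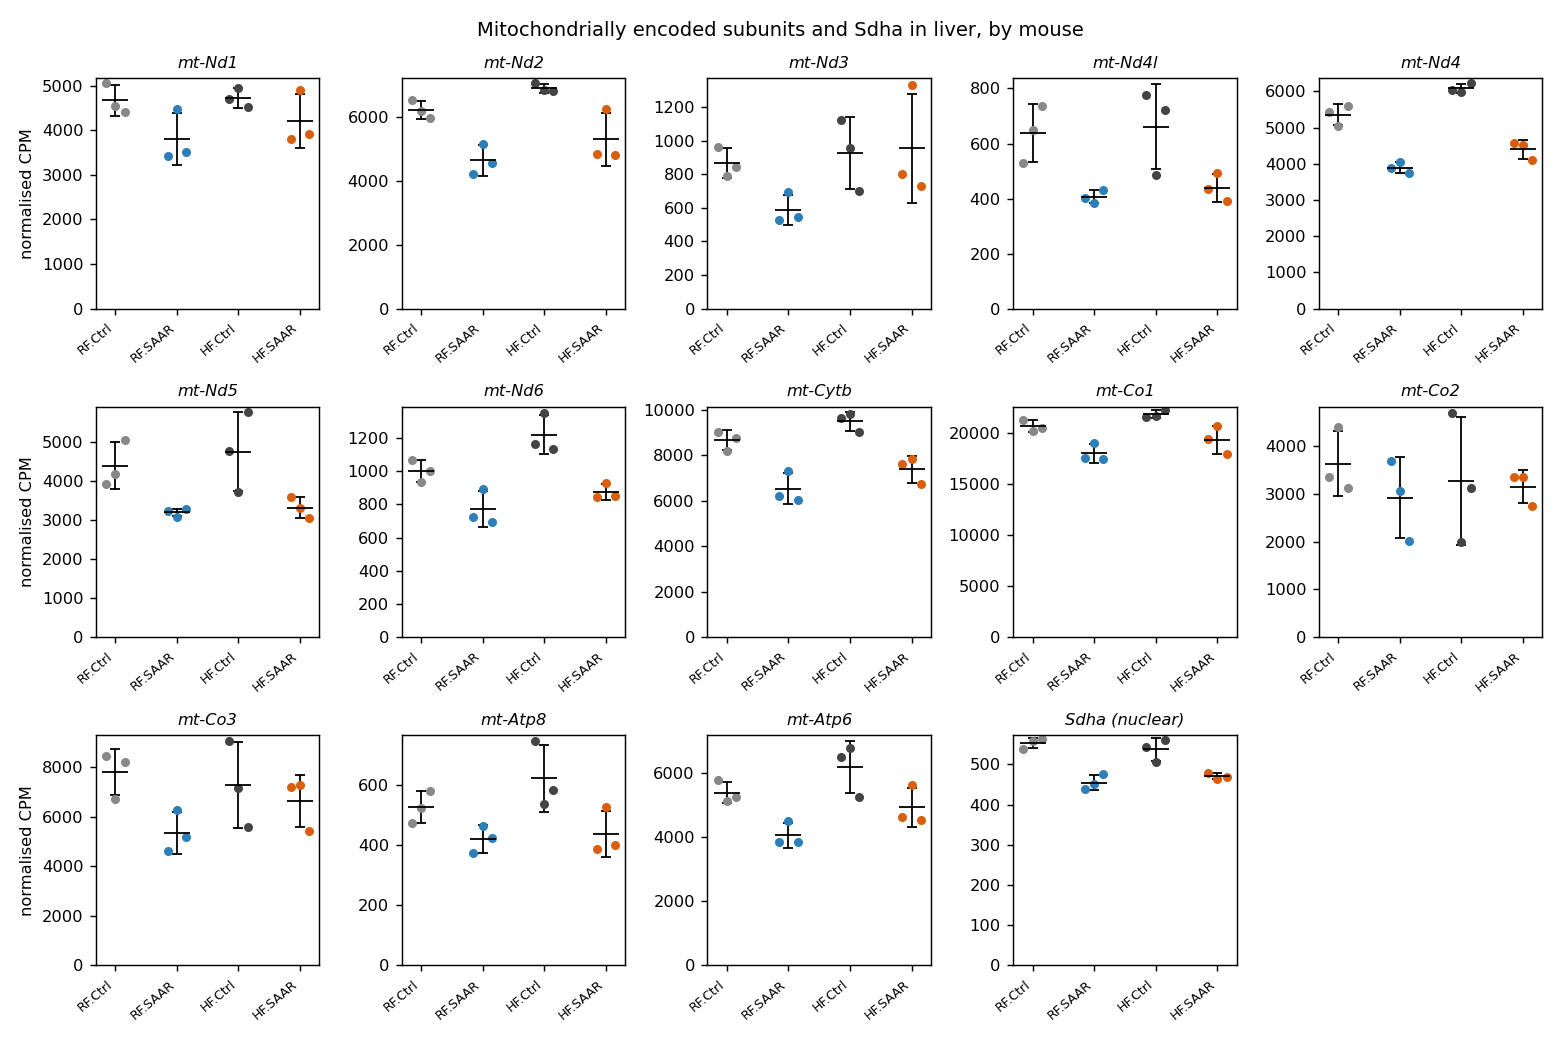
Normalised CPM (vertical axes, TMM scaling, starting at 0) of the 13 mitochondrial genes and Sdha in each of the 12 mice, by diet group on the horizontal axes, with the mean and SD of 3 mice. mt-Nd4 in the restricted mice lies at 3741 to 4586, below the control mice at 5055 to 6233, while mt-Co2 overlaps between groups.

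A count of genes whose groups did not overlap showed the same side. With regular fat 11 of 13 mitochondrial genes were lower in every RF.SAAR mouse than in any RF.Ctrl mouse, the exceptions being mt-Nd1 and mt-Co2, and among all genes this held for 9.7%, with 8.51% higher without overlap. With high fat it held for 7 of 13 (mt-Nd2, mt-Nd4, mt-Nd5, mt-Nd6, mt-Cytb, mt-Co1 and mt-Atp8), against 8.97% of all genes lower and 8.89% higher. Of the 80 nuclear members, 3 were lower without overlap with regular fat (Sdha, Atp5a1 and Ndufa4l2) and 0 higher. With high fat 3 were lower (Sdha, Ndufa9 and Ndufa4l2) and 3 higher (Sdhd, Atp5b and Atp5s), shares of 3.75% that lie below those over all genes. Across both fat levels, 6 mice against 6, 2.37% of all genes were lower and 1.94% higher without overlap, among them mt-Nd4, mt-Nd5, mt-Nd6, mt-Cytb and Sdha.

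Averaging the effect of restriction over both fat levels gave 10 calls among the 93 members, 9 mitochondrial and Sdha, all lower, where 3.7% of all genes were called lower and 3.22% higher. This contrast uses the same mice as the 2 above. Among complex I genes mt-Nd4 (−0.46, SE 0.054, adjusted p = 0.000234), mt-Nd6 (−0.43, SE 0.078, adjusted p = 0.00500), mt-Nd4l (−0.62, SE 0.117, adjusted p = 0.00661), mt-Nd2 (−0.40, SE 0.077, adjusted p = 0.00670) and mt-Nd5 (−0.49, SE 0.098, adjusted p = 0.00948) fell. mt-Cytb of complex III fell by 0.38 on the log2 scale (SE 0.065, adjusted p = 0.00328). For these 6 genes no single mouse decided the call: each was kept in all 12 fits that left out 1 mouse.

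mt-Nd4l, the smaller partner of mt-Nd4, read 529, 649 and 737 normalised CPM in the RF.Ctrl mice and 403, 384 and 431 in RF.SAAR. In HF.Ctrl it read 775, 484 and 722 and in HF.SAAR 434, 492 and 391. HF.Ctrl mouse 2 lay below HF.SAAR mouse 2, and the other control mice were above all restricted mice. mt-Nd5, the largest of the complex I genes on the circle, read 3908, 4182 and 5055 in RF.Ctrl and 3225, 3081 and 3267 in RF.SAAR. With high fat it read 4755, 3717 and 5747 against 3583, 3305 and 3057. Its control mice spread widely and all lay above the restricted mice.

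The ATP synthase genes of the circle, mt-Atp6 (−0.37, SE 0.082, adjusted p = 0.0166) and mt-Atp8 (−0.42, SE 0.105, adjusted p = 0.0285), and mt-Co1 (−0.19, SE 0.052, adjusted p = 0.0467) completed the 9 calls. mt-Atp6 was lost without HF.SAAR mouse 3 (adjusted p = 0.0525). mt-Atp8 was lost in 7 of 12 fits that left out 1 mouse, those without RF.Ctrl mice 2 or 3, RF.SAAR mice 1 or 3, HF.Ctrl mouse 1 or HF.SAAR mice 1 or 3 (adjusted p 0.0619 to 0.0827). mt-Co1 was lost in 10, all but those without RF.SAAR mouse 2 or HF.SAAR mouse 2 (adjusted p 0.0795 to 0.188). mt-Co1 read 21345, 20232 and 20477 normalised CPM in the RF.Ctrl mice and 17554, 19066 and 17457 in RF.SAAR. It read 21587, 21728 and 22326 in HF.Ctrl and 19469, 20681 and 17937 in HF.SAAR. The member with the most assigned counts thus had the smallest difference among the called mitochondrial genes.

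The other 4 mitochondrial genes were not called in the average over fat: mt-Co3 at −0.34 (adjusted p = 0.144), mt-Nd1 at −0.23 (adjusted p = 0.133), mt-Nd3 at −0.26 (adjusted p = 0.420) and mt-Co2 at −0.18 (adjusted p = 0.717). For mt-Co3, mt-Nd3 and mt-Co2 the split of reads with nuclear copies, described below, bears on the value. With high fat alone these 4 read −0.13, −0.17, 0.04 and −0.05, and mt-Nd3 was the single mitochondrial gene with a higher fitted level.

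The 5 mice with pancreatic acinar markers above 1000 CPM were spread over RF.Ctrl, HF.Ctrl and HF.SAAR. Leaving them out, an alternative added after the data were seen, left 7 mice, with 1 in HF.Ctrl and 1 in HF.SAAR. The calls among members then numbered 1 with regular fat, 0 with high fat and 2 in the average over fat, mt-Nd4l and mt-Nd5, and the median mitochondrial difference was −0.39, −0.27 and −0.32. Over all 15430 genes then tested the calls were 81, 6 and 234, against 218, 289 and 1015 of 14670 with all mice. The acinar part in the result was not tested beyond this and a fit with the acinar sum as a covariate, which gave 3, 2 and 9 calls.

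The nuclear genome gave 1 call. Sdha (ENSMUSG00000021577, GRCm38 chr13:74322254-74350280, minus strand) encodes the catalytic subunit that oxidises succinate in complex II, an enzyme of both the chain and the citric acid cycle. It read 539, 558 and 563 normalised CPM in the RF.Ctrl mice and 438, 451 and 476 in RF.SAAR. With high fat it read 543, 507 and 562 in controls and 478, 464 and 469 in restricted mice. All 6 restricted mice lay below all 6 controls. Averaged over fat Sdha fell by 0.24 on the log2 scale (SE 0.056, adjusted p = 0.0211), with −0.28 (adjusted p = 0.107) and −0.19 (adjusted p = 0.320) at regular and high fat. The call was lost without RF.Ctrl mice 2 or 3, RF.SAAR mouse 1, HF.Ctrl mouse 1 or HF.SAAR mouse 1 (adjusted p 0.0525 to 0.0636). It was also lost with offsets for the effective transcript length of each mouse, where the averaged difference shrank to −0.07 (adjusted p = 0.515).

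The promoter of Sdha, 250 bases before to 50 after the start (RefSeq, GRCm38.p6, chr13:74350191-74350490, minus strand, shown 5′ to 3′ on that strand), is printed because Sdha is the single nuclear member called. Capitals mark matches on either strand to the motif of NRF1, a known regulator of respiratory genes.
Sdha promoter: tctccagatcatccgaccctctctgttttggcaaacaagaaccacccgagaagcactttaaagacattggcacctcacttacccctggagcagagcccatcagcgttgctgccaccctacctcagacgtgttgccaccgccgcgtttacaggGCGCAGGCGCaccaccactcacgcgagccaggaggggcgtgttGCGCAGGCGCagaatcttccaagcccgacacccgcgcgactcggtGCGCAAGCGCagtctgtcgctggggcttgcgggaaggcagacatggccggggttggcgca
The window holds 3 matches. Of the 80 nuclear members, 66 had a promoter in the table, and 16 of these (24.2%) held the NRF1 motif, against 4.78% of all 27025 promoters. The GABPA motif CCGGAAG was found in 15 (22.7%, against 9.12%), the YY1 motif AAGATGGC in 9 (13.6%, against 2.88%) and the ESRRA motif TCAAGGTCA in 2 (3.03%, against 0.407%), searched on both strands. These are matches of letters and not binding sites.

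The remaining nuclear members moved little. With regular fat their median log2 difference was −0.11 with 11 of 80 higher, and with high fat 0.04 with 62 of 80 higher. The median over all genes was −0.001 in both. The mitochondrial medians were −0.41 and −0.36, so that the mitochondrial median lay 0.30 and 0.40 below the nuclear one. The nuclear medians depended on single mice. When 1 mouse was left out the high-fat value ranged from −0.10 (without HF.SAAR mouse 2) and −0.07 (without HF.Ctrl mouse 3) to 0.11 (without HF.SAAR mouse 1), 0.12 (without HF.Ctrl mouse 1), 0.14 (without HF.SAAR mouse 3) and 0.15 (without HF.Ctrl mouse 2). It was 0.25 without the 5 mice with high acinar markers. The regular-fat value ranged from −0.27 (without RF.SAAR mouse 2) and −0.18 (without RF.Ctrl mouse 3) to −0.07 (without RF.SAAR mouse 3) and −0.04 (without RF.Ctrl mouse 1 or RF.SAAR mouse 1).

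By complex, the nuclear medians with regular fat were −0.11 for complex I (3 of 37 higher), −0.13 for complex II (1 of 4), −0.18 for complex III (0 of 8), −0.13 for complex IV (3 of 14) and −0.08 for complex V (4 of 17). With high fat they were 0.03 (26 of 37 higher), 0.05 (3 of 4), 0.04 (8 of 8), 0.10 (10 of 14) and 0.09 (15 of 17). In every complex with members from both genomes the mitochondrial median was the lower one. It was −0.46, −0.41, −0.31 and −0.37 for complexes I, III, IV and V with regular fat and −0.47, −0.36, −0.13 and −0.42 with high fat.

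**Figure D2:**
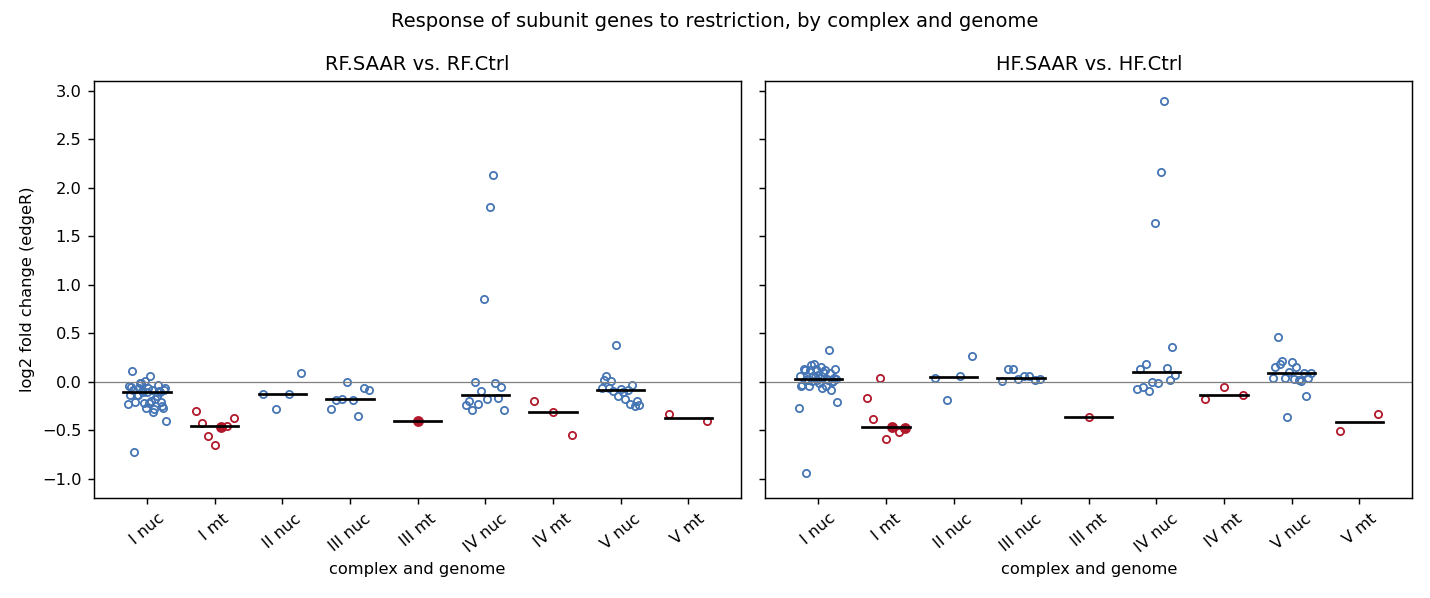
Log2 fold change of each of the 93 members (vertical axis) by complex and genome (horizontal axis; nuclear in blue, mitochondrial in red) for restriction with regular fat (one panel) and with high fat (the other), with filled points for adjusted p under 0.05 and a black line at the median of each set. The mitochondrial medians lie at −0.47 to −0.13 and the nuclear ones at −0.18 to 0.10.

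Scaling matters for the nuclear direction. With library size alone in place of TMM the median of all genes shifted to 0.16 with regular and 0.17 with high fat, and the nuclear medians became 0.05 and 0.21. Relative to all genes they then lay below with regular fat and above with high fat, as under TMM. The mitochondrial medians stayed lower at −0.25 and −0.19. Calls among members were then 0 with regular fat and 5 with high fat, mt-Nd4 lower and Sdhd, Atp5g1, Atp5b and Atp5c1 higher, and over all genes 359 were higher and 66 lower with regular fat, 639 and 80 with high fat and 2175 and 274 averaged. Under TMM these splits were 88 and 130, 148 and 141, and 472 and 543.

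Apart from Sdha, edgeR called no nuclear member in any contrast, and those with the smallest p are given here. With regular fat these were Uqcrh (−0.36, adjusted p = 0.413), Ndufa4l2 (−0.73, adjusted p = 0.451), Cox6a2 (1.80, adjusted p = 0.491), Cox8b (2.13, adjusted p = 0.501) and Atp5c1 (−0.18, adjusted p = 0.534). With high fat they were Atp5g1 (0.46, adjusted p = 0.286), Ndufa4l2 (−0.94, adjusted p = 0.297), Cox8b (2.90, adjusted p = 0.354), Sdhd (0.27, adjusted p = 0.385) and Cox6a2 (2.16, adjusted p = 0.402). Atp5b, 1 of the 3 that were higher in every HF.SAAR mouse, read 1193, 1216 and 1101 normalised CPM in HF.Ctrl and 1302, 1324 and 1289 in HF.SAAR (adjusted p = 0.471). With regular fat its groups overlapped, at 1255, 1237 and 1192 against 1191, 1355 and 1182.

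Ndufa4l2, a relative of Ndufa4 known to be induced by hypoxia, read 1.60, 1.18 and 1.16 normalised CPM in the RF.Ctrl mice and 0.586, 1.06 and 0.719 in RF.SAAR. It read 1.57, 1.33 and 2.32 in HF.Ctrl and 0.858, 0.672 and 1.18 in HF.SAAR. The groups did not overlap within either fat level, at a level near 1 CPM, and the averaged difference of −0.83 was not called (adjusted p = 0.0844).

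The muscle isoforms of complex IV were high in a few restricted mice. Cox6a2 read 1.44, 2.12 and 12.6 normalised CPM in RF.SAAR and 12.5, 1.81 and 9.19 in HF.SAAR, against 0.921 to 2.73 in the 6 control mice. Cox8b read 0.373, 1.06 and 7.45 in RF.SAAR and 6.76, 0.672 and 4.24 in HF.SAAR, against 0.205 to 1.46 in controls. Cox7a1 read 0.746, 1.91 and 5.495 in RF.SAAR and 3.65, 0.775 and 4.29 in HF.SAAR, against 0.366 to 1.64 in controls. All 3 were highest in RF.SAAR mouse 3, HF.SAAR mouse 1 and HF.SAAR mouse 3, and the other restricted mice overlapped the controls, except RF.SAAR mouse 2 for Cox7a1. The averaged log2 differences of 1.98, 2.51 and 1.25 for Cox6a2, Cox8b and Cox7a1 were not called by edgeR (adjusted p = 0.135, 0.122 and 0.203), while DESeq2 called Cox6a2 and Cox8b.

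Myoglobin (Mb), a muscle marker, was highest in the same 3 mice, at 106 CPM in RF.SAAR mouse 3 and 73.0 and 53.3 CPM in HF.SAAR mice 1 and 3, against 4.65 to 33.7 CPM in the other 9. Myh2, Myh7, Tnnt3, Tnnc2 and Tnni2 were also highest in these 3 mice. Acta1, Myh1, Myh4, Myh6, Ckm, Mylpf, Myl1 and Actc1 did not have all 3 as their highest mice. Myh4 and Myh6 were highest in HF.Ctrl mouse 1, at 93.5 and 6.32 CPM, and Actc1 in RF.Ctrl mouse 3, at 5.47 CPM. The summed muscle markers were 1381, 1023 and 835 CPM in these 3 mice, within a range of 309 to 1381 over all. Ckm, the muscle creatine kinase, was less separated, at 140, 109 and 88.5 CPM in these mice against 41.1 to 92.7 in the other 9. Ucp1, the uncoupling protein of brown fat, read 20.8 CPM in RF.SAAR mouse 3, 9.31 in HF.SAAR mouse 3 and 5.81 in RF.SAAR mouse 2 but 0.114 in HF.SAAR mouse 1. The part of muscle or brown fat RNA in the 3 isoforms was not tested.

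**Figure D3:**
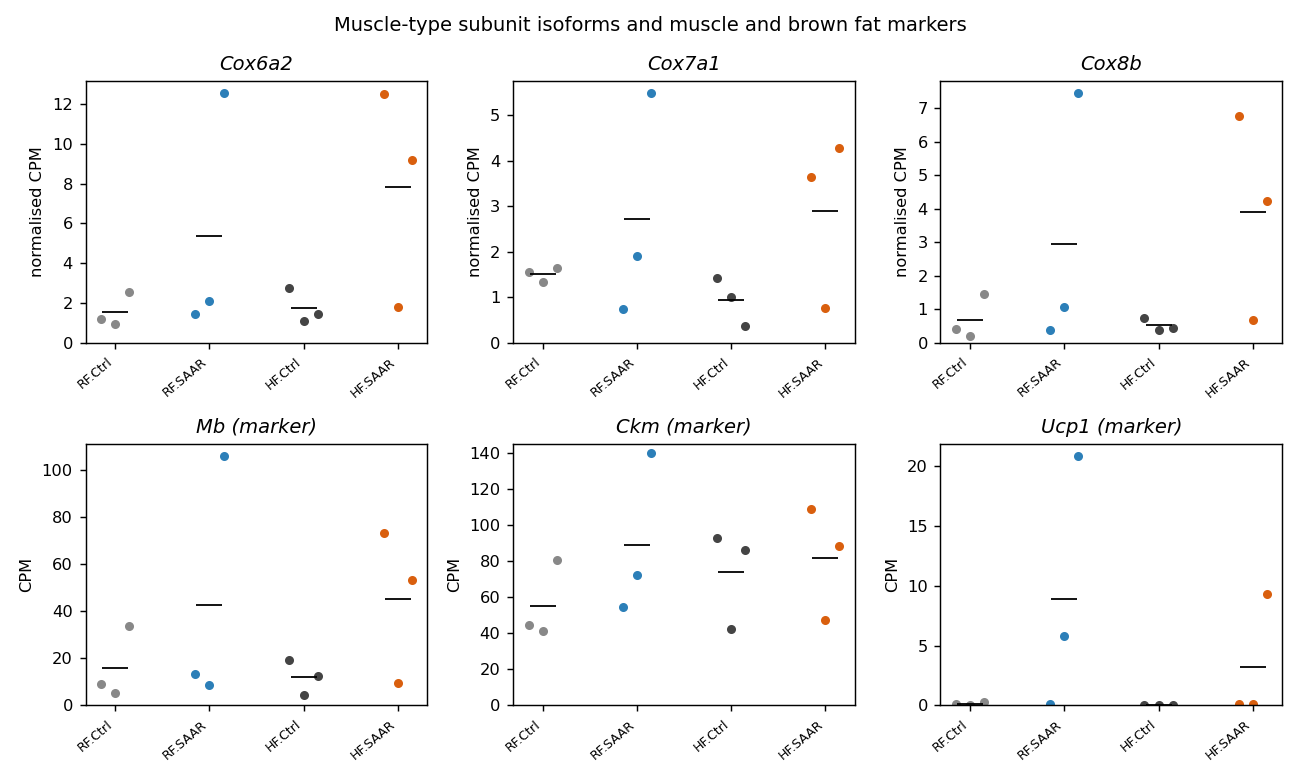
Levels per mouse (points) and group means (lines) of the muscle isoforms Cox6a2, Cox7a1 and Cox8b in normalised CPM, and of Mb, Ckm and Ucp1 in CPM (vertical axes), by diet group. The 3 isoforms and Mb are highest in RF.SAAR mouse 3 and HF.SAAR mice 1 and 3. The other muscle markers are not shown, and of these Myh4, Myh6 and Actc1 were highest in control mice.

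Some members cannot be separated by short reads from nuclear copies. A stretch of chromosome 1 (GRCm38, chr1:24611535-24616197) carries unprocessed pseudogenes of mitochondrial genes, and the number of 31-base words of each member that also occur in another listed transcript was counted. All words of mt-Co2 were shared, 99.9% of those of mt-Co3, 99.5% of mt-Atp6, 98.9% of mt-Nd4l, 98.1% of mt-Nd3, 63.9% of mt-Co1 and 62.8% of mt-Nd4. mt-Nd1 shared 0%, and mt-Cytb and mt-Nd6 6.55 and 7.36%. Of the reads assigned to mt-Co2 or its copy Gm28661, the copy received 28.1 to 76.9% depending on the mouse. For mt-Co3 and Gm28437 the copy's share was 3.81 to 34.2%, and for mt-Nd3 and Gm28438 0.767 to 23.5%. For mt-Atp6 the share did not pass 3.89%, and the copies of mt-Nd4 and mt-Nd4l held means of 0.049 and 0 counts.

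Adding the copies to their member, an alternative added after the data were seen, changed values in both directions. mt-Co2 alone read 3359, 4401 and 3120 normalised CPM in the RF.Ctrl mice, 3686, 3055 and 2022 in RF.SAAR, 4683, 2000 and 3120 in HF.Ctrl and 3350, 3359 and 2748 in HF.SAAR. With Gm28661 added it read 8646, 7485 and 6960 in RF.Ctrl and 5122, 7456 and 5391 in RF.SAAR, and 8236, 8660 and 7087 in HF.Ctrl against 6685, 8259 and 6432 in HF.SAAR. HF.Ctrl mouse 2, the lowest of the 12 for mt-Co2 alone, was the highest in the sum, and the groups still overlapped at each fat level. The averaged difference was −0.26 (SE 0.104, adjusted p = 0.166) in place of −0.18 (SE 0.212). mt-Co3 with Gm28437 read −0.33 (SE 0.081, adjusted p = 0.0248) and was then the 10th mitochondrial gene called in the average, and mt-Nd3 with Gm28438 read −0.27 (SE 0.203, adjusted p = 0.534), its SE having been 0.161 alone. With high fat mt-Nd3 turned from 0.04 to −0.01.

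**Figure D4:**
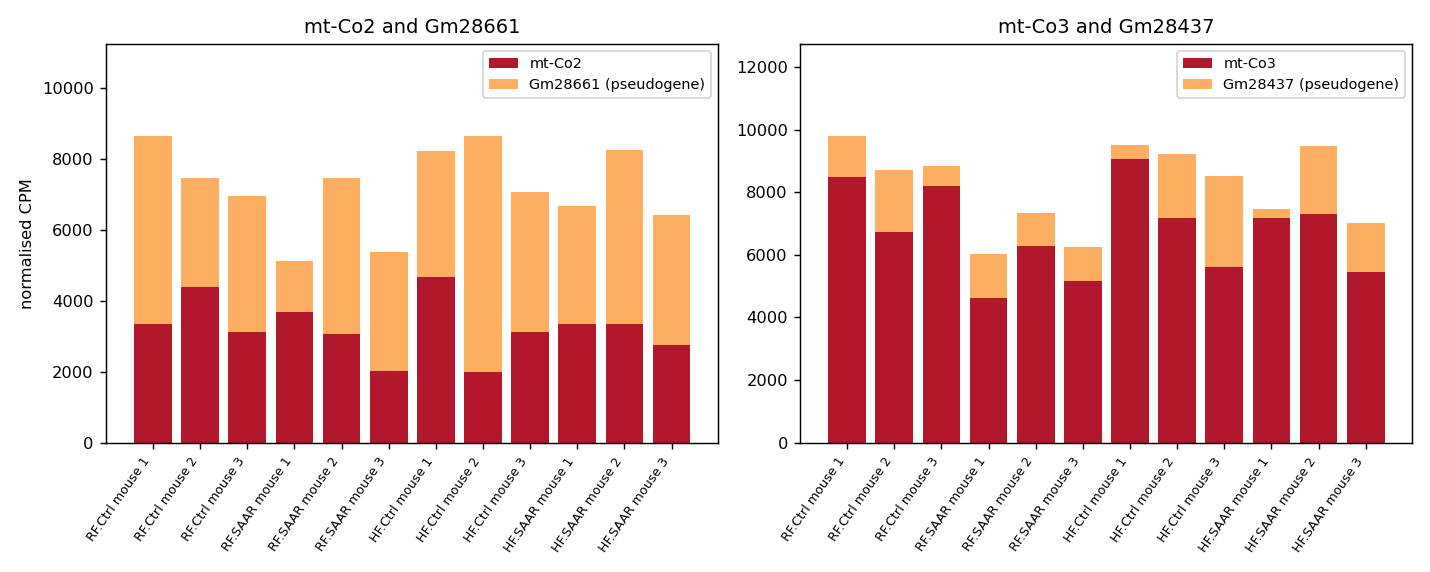
Normalised CPM (vertical axes, starting at 0) of mt-Co2 with its nuclear copy Gm28661 and of mt-Co3 with Gm28437, stacked per mouse for the 12 mice along the horizontal axes. The copy takes 28.1 to 76.9% of the mt-Co2 pair and 3.81 to 34.2% of the mt-Co3 pair.

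Among nuclear members the same held for Atp5g2, where the copy Gm10175 received 88.4 to 94.6% of the pair's reads, and for Ndufb4, where the processed pseudogene Ndufb4c received 41.8 to 52.5%. The low level of Atp5g2 given above therefore holds only for reads assigned to it. With Gm10175 added, the difference for Atp5g2 turned from 0.38 to −0.14 with regular fat and from −0.36 to 0.12 with high fat, none of these values being called.

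Read as the ratio of summed TPM, mitochondrial to nuclear members, the values were 5.54, 5.94 and 6.84 in RF.Ctrl and 5.59, 4.65 and 5.15 in RF.SAAR. With high fat they were 6.49, 5.42 and 7.58 in HF.Ctrl and 5.44, 4.601 and 5.19 in HF.SAAR. The means were 6.11 ± 0.665 and 5.13 ± 0.473 with regular fat and 6.50 ± 1.08 and 5.08 ± 0.431 with high fat (SD, n = 3), and both pairs of groups overlapped by 1 mouse. Unlike the log2 differences, the summed mitochondrial TPM was not lower with high fat, at 114266 ± 16315 in HF.Ctrl and 119183 ± 4532 in HF.SAAR, with HF.Ctrl mouse 2 the lowest at 95430. With regular fat it was 119940 ± 3988 and 107734 ± 4147. These sums leave out the reads given to the nuclear copies. In HF.Ctrl mouse 2 the copies took 76.9% of the mt-Co2 pair and 22.2% of the mt-Co3 pair. The part of this split in the sums was not tested. The summed nuclear TPM was 17664 ± 1421 in HF.Ctrl and 23571 ± 1952 in HF.SAAR, without overlap, and 19764 ± 1715 and 21087 ± 1745 with regular fat, with overlap. TPM is not rescaled for composition as the TMM values are, so the direction of the nuclear sum depends on the scale. The sums and their ratio describe poly(A)-selected RNA.

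Mice of one group differed in the nuclear members as a set. The median deviation of the 80 from their mean over 12 mice, on the log2 scale, was −0.32, 0.14 and −0.21 in RF.SAAR, −0.02, 0.34 and −0.08 in HF.SAAR, 0.16, 0.02 and −0.13 in RF.Ctrl and 0.13, 0.20 and −0.30 in HF.Ctrl. RF.SAAR mouse 2 and HF.SAAR mouse 2 were the high mice of their groups. For the 13 mitochondrial genes the values were −0.36, −0.12 and −0.36 in RF.SAAR and −0.10, 0.09 and −0.24 in HF.SAAR, against 0.17, 0.06 and 0.08 in RF.Ctrl and 0.31, 0.20 and 0.18 in HF.Ctrl. Here every restricted mouse lay below every control mouse of its fat level.

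Most nuclear members are short transcripts, and 55 of 80 had an effective length under 700 bases. The other 1080 tested genes under that length moved to the same side as the nuclear members, with medians of −0.07 (41.9% higher) with regular fat and 0.06 (58.1% higher) with high fat. Their per-mouse medians ranged from −0.20 to 0.22, with HF.SAAR mouse 2 the highest, as for the nuclear members, and HF.Ctrl mouse 3 the lowest. The part of transcript length in the nuclear shift was not tested.

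**Figure D5:**
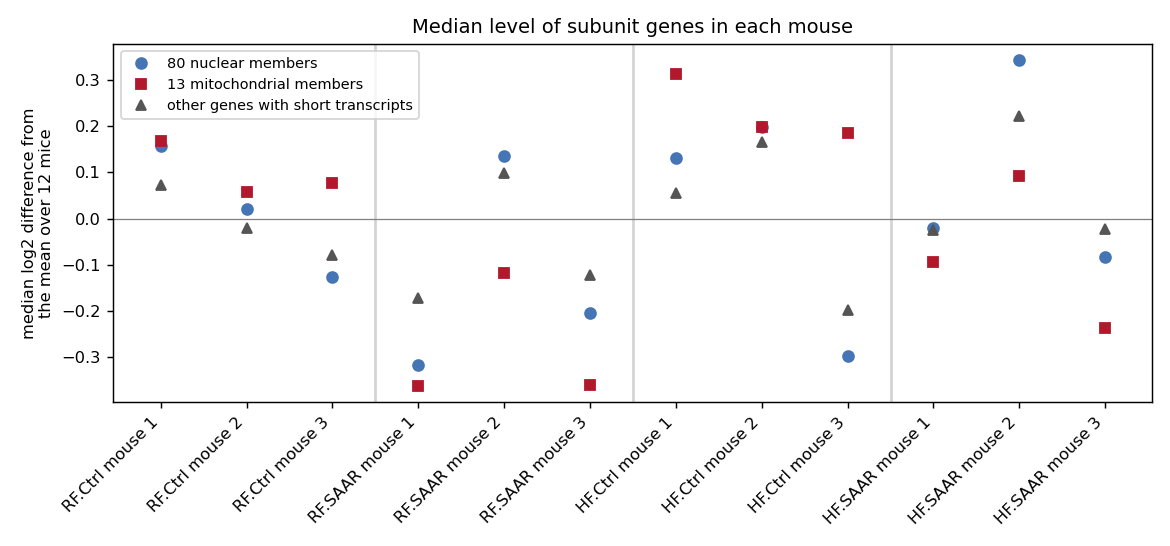
Median log2 deviation from the mean over 12 mice (vertical axis) for the nuclear members, the mitochondrial members and other genes with an effective length under 700 bases, 1 point per mouse by diet group. The mitochondrial medians of restricted mice lie below the controls of their fat level, while the nuclear medians overlap.

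Dietary fat gave no calls among members. HF vs. RF averaged over diet had 0 of 93 called by edgeR, with 7 at an unadjusted p under 0.05 and 0 called by DESeq2, where 0.0409% of all genes were called. HF.Ctrl vs. RF.Ctrl had 0 called (2 at an unadjusted p under 0.05, DESeq2 0) where 0% of all genes were called, and HF.SAAR vs. RF.SAAR 0 (5 at an unadjusted p under 0.05, DESeq2 0) where 0.0477% were called. In HF.Ctrl vs. RF.Ctrl 4 of 13 mitochondrial genes were higher without overlap (mt-Nd2, mt-Nd4, mt-Nd6 and mt-Co1), against 4.09% of all genes. In HF.SAAR vs. RF.SAAR 3 of 13 were (mt-Nd3, mt-Nd4 and mt-Atp6), against 5.47%. Of the 80 nuclear members 1 and 2 were higher and 2 and 0 lower in these contrasts, where 4.42% and 4.68% of all genes were lower. Averaged over diet 0 members were separated in either direction, where 0.109% of all genes were lower and 0.0886% higher. The median differences of HF vs. RF were 0.12 for nuclear members, 71 of 80 being higher, and 0.15 for mitochondrial ones, 12 of 13 being higher, and the other genes under 700 bases had 0.09 with 71.8% higher. The nuclear side was not stable. Of the 5 mice with high acinar markers 4 were fed high fat, and the nuclear median was −0.03 with 22 of 80 higher when the acinar sum was a covariate, and −0.08 with 17 of 80 higher without the 5 mice. It was 0.03 without HF.SAAR mouse 2 and 0.07 without HF.Ctrl mouse 2. The mitochondrial median stayed at 0.13 with the covariate and 0.11 without the 5 mice. The mitochondrial genes with the smallest p in this contrast were mt-Nd4 at 0.18 (adjusted p = 0.491), mt-Nd6 at 0.23 (adjusted p = 0.604) and mt-Atp6 at 0.24 (adjusted p = 0.626). Among nuclear members Atp5s read 0.33 (adjusted p = 0.611), Ndufb3 0.27 (adjusted p = 0.881) and Sdhc 0.11 (adjusted p = 0.927).

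Whether restriction acted differently at the 2 fat levels was tested with the diet-by-fat interaction. No member was called by edgeR, with 1 at an unadjusted p under 0.05 (Atp5g2, −0.75, adjusted p = 0.999, which became 0.25 with its copy Gm10175 added) and 0 called by DESeq2, and 0.00682% of all genes were called. All 13 mitochondrial genes had an adjusted p of 0.999. The nuclear median of the interaction was 0.19, with 77 of 80 above 0, against 0.009 over all genes and 0.15 over the other genes under 700 bases, and it fell to 0.03 with 45 of 80 above 0 without HF.SAAR mouse 2. A call at one fat level and not at the other, as for mt-Cytb and mt-Nd6, is therefore not shown to be a difference between fat levels.

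Genes that act on the chain without being subunits were read from 4 lists. Of 44 assembly factors of complexes I, III, IV and V, 44 were tested and 0 were called by edgeR or DESeq2 with regular fat, with high fat or in the average, with 0, 1 and 4 at an unadjusted p under 0.05. Over all genes edgeR called 0.886, 0.961 and 3.7% lower and 0.6, 1.01 and 3.22% higher. DESeq2 called 2.7, 2.21 and 4.49% lower and 2.15, 2.5 and 4.68% higher. The median differences of the assembly factors were −0.06 in all 3 contrasts, against −0.001, −0.001 and −0.004 over all genes. A higher fitted level was found for 17, 18 and 15 of the 44, against 49.8, 49.8 and 49.3% of all genes.

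Of 35 genes of mitochondrial DNA transcription and RNA maturation, 34 were tested and 0 were called by edgeR at either fat level alone, with 6 and 3 at an unadjusted p under 0.05. DESeq2 called 1 higher and 1 lower with regular fat and 1 lower with high fat. In the average 1 rose and 1 fell, 2 of 34 where 3.22% of all genes were called higher and 3.7% lower, and DESeq2 called 1 higher and 2 lower where it called 4.68% and 4.49% of all genes. The 2 edgeR calls are named here after their values were seen. Polrmt, the mitochondrial RNA polymerase, read 11.8, 10.9 and 10.9 normalised CPM in the RF.Ctrl mice, 15.2, 17.3 and 14.4 in RF.SAAR, 11.8, 12.9 and 12.6 in HF.Ctrl and 15.6, 13.4 and 13.8 in HF.SAAR. All restricted mice lay above all controls (0.34, SE 0.081, adjusted p = 0.0226), and the call was lost without RF.Ctrl mice 2 or 3, HF.Ctrl mouse 1 or HF.SAAR mouse 1 (adjusted p 0.0595 to 0.0697).

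Hsd17b10, a dehydrogenase that is also a subunit of mitochondrial RNase P, which cuts tRNAs from the precursors, read 119, 108 and 111 normalised CPM in the RF.Ctrl mice and 74.6, 98.2 and 73.7 in RF.SAAR. It read 147, 156 and 132 in HF.Ctrl and 104, 117 and 88.8 in HF.SAAR. Each restricted group lay below its control (averaged −0.47, SE 0.094, adjusted p = 0.00861), and the call was kept in all 12 fits that left out 1 mouse. Tfam, which packages and activates mitochondrial DNA, read 0.14 in the average (adjusted p = 0.319).

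Of 11 regulators of nuclear respiratory genes, 11 were tested. A higher fitted level was found for 8 with regular fat and 10 with high fat, against 49.8% of all genes in each. edgeR called 1 higher in each, 3 in the average and 0 lower. Over all genes it called 0.6%, 1.01% and 3.22% higher. DESeq2 called 1 higher with regular fat, 3 with high fat and 3 in the average. Over all genes it called 2.15%, 2.5% and 4.68% higher. Ppargc1a, the coactivator PGC-1α, read 6.89, 9.01 and 7.07 normalised CPM in HF.Ctrl and 22.9, 15.5 and 13.99 in HF.SAAR, without overlap (1.18, SE 0.230, adjusted p = 0.0185). In RF.Ctrl it read 11.7, 9.31 and 12.8 and in RF.SAAR 16.1, 10.4 and 17.7, with overlap (0.39, adjusted p = 0.515), and the difference between fat levels of 0.80 (SE 0.320) was not called (adjusted p = 0.999). The high-fat call was lost without HF.Ctrl mouse 1 or 3 or HF.SAAR mouse 1 (adjusted p 0.0727 to 0.0961).

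Yy1, a zinc finger factor, read 58.7, 58.0 and 58.5 normalised CPM in the RF.Ctrl mice and 75.6, 72.4 and 78.5 in RF.SAAR, and 57.1, 57.6 and 59.6 in HF.Ctrl against 74.3, 74.6 and 66.7 in HF.SAAR. All restricted mice lay above all controls. The regular-fat difference of 0.37 (adjusted p = 0.0496) lost its call in 11 of 12 fits that left out 1 mouse, all but that without HF.Ctrl mouse 3 (adjusted p 0.0614 to 0.172), and the average of 0.34 (adjusted p = 0.00439) lost it in none. In the average Ppargc1a (0.79, adjusted p = 0.0107) and Esrra (0.37, adjusted p = 0.0267), the receptor ERRα, also rose. Esrra is named after its values were seen, and its call was lost without RF.Ctrl mice 1 or 3, RF.SAAR mouse 2, HF.Ctrl mice 2 or 3 or HF.SAAR mouse 2 (adjusted p 0.0505 to 0.0691). Nrf1 read 0.21 (adjusted p = 0.316) and Gabpa 0.08 (adjusted p = 0.647). The list median was 0.23, 0.20 and 0.19 with regular fat, with high fat and averaged, against −0.001, −0.001 and −0.004 over all genes.

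Of 20 genes of mobile electron carriers and ubiquinone synthesis, 19 were tested. Coq10a, a ubiquinone-binding protein of the inner membrane, was the single gene called by edgeR. It was called with high fat and in the average, where 1.01% and 3.22% of all genes were called higher. DESeq2 called 1 gene of the list higher with regular fat, with high fat and in the average. Over all genes it called 2.15%, 2.5% and 4.68% higher. Coq10a read 22.2, 26.2 and 18.9 normalised CPM in HF.Ctrl and 29.8, 35.3 and 33.4 in HF.SAAR (0.55, adjusted p = 0.0300). With regular fat it read 20.5, 21.2 and 20.5 in RF.Ctrl against 28.7, 29.1 and 27.2 in RF.SAAR (0.45, adjusted p = 0.0866). Restricted mice were above all controls, and the averaged difference was 0.50 (adjusted p = 0.00299). The high-fat call was lost without HF.Ctrl mice 1 or 3 or any 1 HF.SAAR mouse (adjusted p 0.0504 to 0.122). Cycs, cytochrome c, read 0.22 (adjusted p = 0.351) and Cyc1, the complex III subunit not matched by symbol, −0.01 (adjusted p = 0.964) in the average.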

How the data were processed

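Liver RNA of 12 mice was sequenced by the authors (poly(A) selection, NEBNext Ultra II libraries), trimmed with cutadapt and quantified with kallisto on the Ensembl release 94 mouse transcripts. The deposited values per transcript are estimated counts, in which a read compatible with more than one transcript is divided between them, an effective length in bases, and TPM, which the authors' tool scales to the same sum in each library. Library strand is not given in the sources used here. Groups came from the labels. The labels give no mouse numbers, so mice are numbered 1 to 3 in order of deposit within a group.

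Transcripts were assigned to symbols with GENCODE M21 (GRCm38). Of 118489 listed transcripts, 1673 were not matched and held 1.08% of counts. Estimated counts were summed per gene, rounded and tested with edgeR 4.0.16 (R 4.3.3, limma 3.58.1): filterByExpr by group, TMM, robust quasi-likelihood F-test, one coefficient per group over 12 mice, Benjamini-Hochberg over 14670 genes, threshold 0.05. The script was tested on simulated data. Alternatives were DESeq2 1.42.0, other scalings and filters, effective length offsets, the compared groups alone, an acinar covariate, acinar genes left out, each mouse left out, and 2 added after seeing the data (5 mice over 1000 acinar CPM left out, copies added). Depth differed by less than 1.5 times between mice, and the p-values measure the spread between mice.

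The members, lists and tests were chosen with earlier results of these data known, so no count over them is independent support. Named members were the 13 mitochondrial genes, any nuclear member called, the 6 nuclear members of smallest p in each restriction contrast and the 3 in each fat contrast or the interaction, the most and least abundant per complex, and isoform families. From the other lists the genes called in either restriction contrast were named. Those named after their values were seen are given as such. Tfam, Nrf1, Gabpa, Cycs and Cyc1 were not called by edgeR and are named outside this rule.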

Additional observations from a re-analysis of the deposited data

How the results depend on the processing

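The count of members called at adjusted p under 0.05 was 2 in RF.SAAR vs. RF.Ctrl. It was 0 with library size alone, 4 with effective length offsets, 1 with the compared groups alone, 7 with DESeq2, 1 with acinar genes left out, 1 without the 5 mice over 1000 acinar CPM, and 1 to 3 when 1 mouse was left out. In HF.SAAR vs. HF.Ctrl the count of 2 was 5 with library size alone, 1 with the compared groups alone, 7 with DESeq2, 0 without the 5 mice, and 0 to 3 when 1 mouse was left out. In the average over fat the count of 10 was 2 without the 5 mice and 7 to 11 when 1 mouse was left out. With library size alone it was 11, but of another make-up, with 5 nuclear members higher, 0 nuclear lower and 6 mitochondrial lower, against 0, 1 and 9. The other alternatives kept these counts within 1.5 times, and the fat and interaction counts were 0 in all. In the comparison of restricted with control mice at each fat level the mitochondrial median stayed below the nuclear one in every alternative, and in the fat contrasts its side changed with the mouse left out or the acinar covariate. Of 1770 single-gene values over 28 genes in the restriction contrasts, 1588 kept direction and side of the threshold, 120 lost a call, 50 gained one and 12 changed direction. For HF.SAAR vs. HF.Ctrl these were Polrmt (−0.0299) and Sdha (0.0244) with effective length offsets; mt-Co2 with library size alone (0.103) and without the 5 mice (0.0824), and −0.308 to 0.3 when 1 mouse was left out, positive without HF.Ctrl mouse 1 or HF.SAAR mouse 3 (0.0372); mt-Co3 with library size alone (0.0396) and without the 5 mice (0.339), and −0.288 to 0.0565 when 1 mouse was left out, positive without HF.Ctrl mouse 1; and mt-Nd3 with copies added (−0.01), and −0.281 to 0.205 when 1 mouse was left out, negative without HF.Ctrl mouse 3 (−0.124) or HF.SAAR mouse 2. The causes were not tested. No paired analysis was possible because the labels give no replicate numbers. Reads shared with copies limit mt-Co2, mt-Co3, mt-Nd3, Atp5g2 and Ndufb4.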
